A study of Mus musculus with 4 samples.

Results

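The 44 genes described here encode the enzymes and cofactors that shorten, uncap and degrade mRNA. They were taken by symbol from the deposited expression table of leukemia cells from mouse bone marrow, as 44 of its 55339 rows. The choice rested on function and no measured value entered the rule, but earlier results of these data were known when it was made. All 44 were found, and all 44 passed the filter on low values, which left 17303 genes to test. They fall into 7 machineries: the CCR4-NOT deadenylase complex (10 genes), the PAN2-PAN3 pair with PARN (3), the decapping enzyme and its cofactors (6), the LSM1-7 ring (7), the 5′ to 3′ exonucleases (2), nonsense-mediated decay (6) and the RNA exosome (10).

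Polyadenylated RNA was sequenced from cells of the genotype YBX1-/- in 2 libraries, replicates 1 and 3, and of the genotype WT in 2 libraries, replicates 4 and 5. All 4 came from C57BL/6 mice. The titles abbreviate the knockout as cKO. The labels used here give neither age nor sex, and name no oncogene, no Cre driver and no pooling of animals. They also do not say whether replicates came from separate animals, so the p-values below measure only the spread between these libraries, which may be technical. The title of the series ties YBX1, an mRNA-binding member of the cold-shock domain family, to the stability of mRNA and the survival of these cells.

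Cytoplasmic mRNA decay usually begins with removal of the poly(A) tail. The shortened mRNA is then either uncapped and digested from its 5′ end by XRN1, after the LSM1-7 ring has bound the remaining oligo(A) end, or digested from its 3′ end by the exosome. Nonsense-mediated decay feeds mRNAs with a premature stop codon into these routes.

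Levels are given as the authors' normalized log2 expression, on which a difference of 1 is nominally a doubling. The transform behind these values is not given in the sources used here, and if it shrinks differences, the folds below are too small. Because no counts are given, depth per library is unknown. Ybx1 itself was at 7.29 and 8.33 in YBX1-/- replicates 1 and 3, against 19.70 and 10.002 in WT replicates 4 and 5, without overlap. Limma gave its difference of -7.04 (SE 3.49), which carries the value of 19.70 in WT replicate 4, an adjusted p of 0.826. Against WT replicate 5 alone the difference was -2.19, with WT replicate 5 at 4.57-fold the YBX1-/- level. The authors' deposited table lists Ybx1 at a log2 fold change of -9.50 with an adjusted p of 3.06e-04. Markers of the labelled cells were present in every library: all 12 genes of a myeloid list were above 0, 0 of them were called by limma, and 4 (Itgam, Kit, Cd34 and Csf3r) lay below both WT libraries in YBX1-/-. Of 30 genes in lists for erythroid, B, T and NK, megakaryocyte, and stromal or endothelial cells, 15 passed the filter and 0 were called by limma. Cd3e, Gp1bb and Col3a1 were listed at 0 throughout, but others were detected. Trac, a T cell marker, was at 2.11 and 2.62 in YBX1-/- against 4.09 and 3.65 in WT, and lay below both WT libraries, as did Alas2. Cd79b, a B cell marker, was at 7.41 and 7.18 in YBX1-/- against 5.16 and 6.996 in WT, above both. Itga2b, a megakaryocyte marker, was at 3.26 and -0.71 in YBX1-/- against 2.47 and 5.41 in WT. Col1a1, a stromal marker, was at 0.59 and 3.22 in YBX1-/- against 4.01 and -0.65 in WT, and Pecam1, an endothelial marker, at 6.59 and 6.11 in YBX1-/- against 6.93 and 6.10 in WT. The summed linear level of the 7 erythroid markers was 5.07 and 25.8 in YBX1-/- replicates 1 and 3, against 119 and 17.3 in WT replicates 4 and 5, and that of the 12 myeloid markers was 138430 and 139832 in YBX1-/-, against 20192646 and 95971 in WT. The part of these differences in the results below was not tested. In bulk RNA, fewer cells of a type and less RNA per cell cannot be told apart. Across tested genes Pearson's r of WT replicate 4 with the other 3 libraries was 0.69 to 0.71, against 0.93 to 0.96 among the others, as a description over genes of the same 4 libraries.

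That library also split the 44 decay genes. In WT replicate 4, 7 of them lay over 3 log2 above the median of the other libraries: Pan3, Ddx6, Lsm5, Xrn2, Upf1, Smg6 and Exosc1. Across all tested genes 11.3% did so. Another 23 of the 44 sat in a narrow band between 4.9 and 5.9 there, a band set after the values were seen, where each other library had 1 member. Of all tested genes 24.6% fell in that band in WT replicate 4, and 45.4% of the 9144 genes that reached log2 5 in at least 2 libraries. Whether such values are measured levels cannot be told without counts, so each result is given against both WT libraries and against WT replicate 5 alone.

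**Figure D1:**
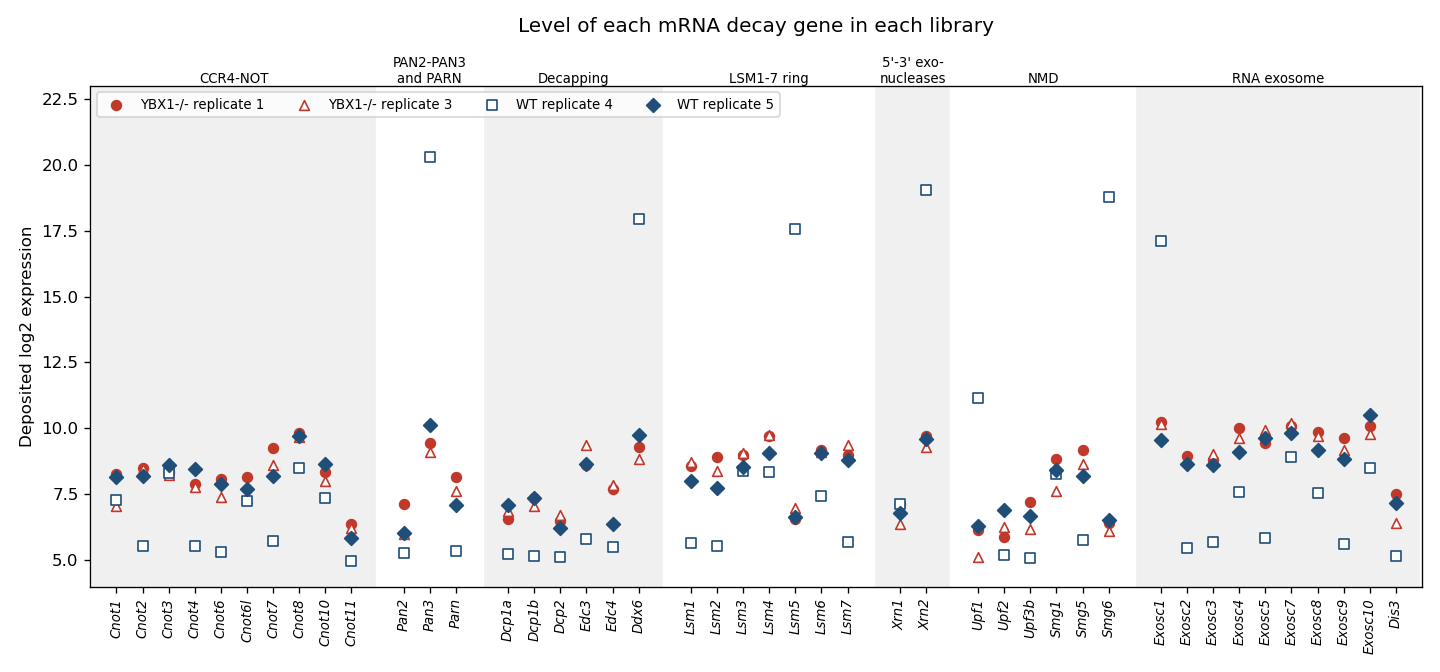
Deposited log2 expression of the 44 mRNA decay genes (y axis) by gene and machinery (x axis), with 1 point per library: YBX1-/- replicates 1 (filled circles) and 3 (open triangles), WT replicates 4 (open squares) and 5 (filled diamonds). The 2 YBX1-/- libraries and WT replicate 5 lie close together, while WT replicate 4 reaches 20.29 for Pan3 and lies between 4.9 and 5.9 for 23 genes.

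No decay gene passed the test between YBX1-/- and WT. Limma, with Benjamini-Hochberg adjustment over all 17303 tested genes, called 0 of the 44 genes at an adjusted p under 0.05, and 0% of all tested genes. The smallest adjusted p among the 44 was 0.826. At an unadjusted p under 0.05 there was 1 gene of the 44, Edc4, where 3.76% of all tested genes passed. Leaving out WT replicate 4 also gave 0 calls by limma, with Edc4 again the 1 member of the 44 at an unadjusted p under 0.05, beside 10.4% of all tested genes. Leaving out WT replicate 5, which sets both YBX1-/- libraries against WT replicate 4 alone, gave 28 calls of the 44 (21 higher and 7 lower in YBX1-/-), where 28.7% of all tested genes were called, 14.2% higher and 14.5% lower. The residual spread of that fit comes from the YBX1-/- pair alone. All 44 are genes of at least log2 5 in 2 libraries, whose share is not given for that fit. The excess of calls over all tested genes therefore cannot be read against genes of like level. An exact two-sided permutation test of 2 against 2 libraries cannot give a p below 0.333.

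Without a passing test, the genes are described by where their values lay. In 19 of the 44 (43.2%) both YBX1-/- values lay above both WT values, and in 4 (9.09%) both lay below. Among all tested genes the shares were 17.3% above and 18.8% below. Among the 9144 genes of at least log2 5 in 2 libraries, a group to which all 44 belong, they were 30.8% and 9.30%. In all 19 of the higher genes WT replicate 4 was the lower WT library, so their place rests on WT replicate 5. Against WT replicate 5 alone, 20 genes (45.5%) lay above and 11 (25%) below, where 41.8% and 33.4% of all tested genes did. The median difference of the 44 was 0.85 over all libraries and 0.11 without WT replicate 4, beside -0.09 and 0.07 over all tested genes and 0.60 and 0.03 over those of at least log2 5. Of the 19 higher genes 12 belonged to the LSM1-7 ring or the exosome, which together hold 17 of the 44.

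**Figure D2:**
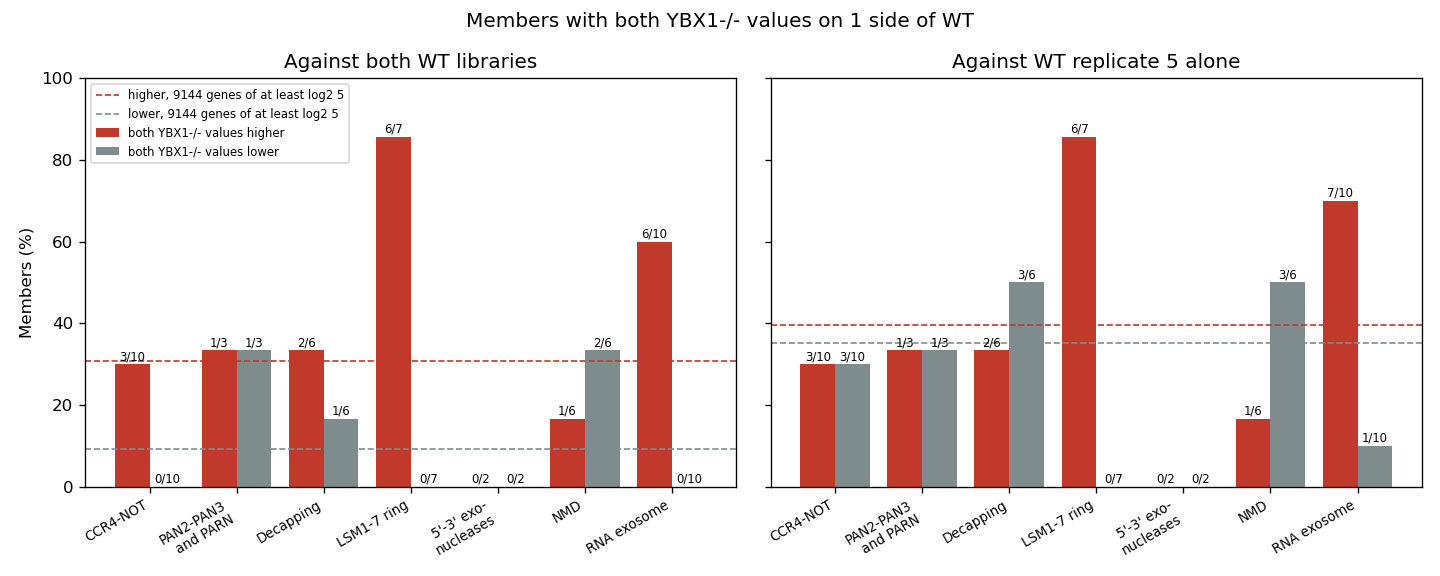
Percentage of the members of each machinery (x axis) with both YBX1-/- values higher (red) or lower (grey) than both WT libraries (left) or than WT replicate 5 alone (right), with counts above the bars. Dashed lines give the same shares over the 9144 genes of at least log2 5 in 2 libraries: 30.8% higher and 9.30% lower on the left, 39.5% and 35.2% on the right. The LSM1-7 ring, with 6 of 7 higher in both panels, and the exosome, with 6 and 7 of 10, stand above the red line. On the left, decapping (2 of 6) and PAN2-PAN3 with PARN (1 of 3) also stand above it, and on the right they stand below.

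The widest separation was that of Edc4, which encodes a scaffold of the decapping complex that brings DCP2 and its activators together. Edc4 (chromosome 8, 105880881 to 105894908, plus strand, GRCm38) was at 7.69 and 7.86 in YBX1-/- replicates 1 and 3, against 5.50 and 6.39 in WT replicates 4 and 5. Both YBX1-/- values were above both WT values, and the groups lay 1.30 apart at the closest, more than the distance within either pair. The YBX1-/- mean of 7.77 ± 0.12 (SD, n = 2) stood against a WT mean of 5.94 ± 0.63 (SD, n = 2). The limma difference was 1.83 (SE 0.69), with an unadjusted p of 0.0476 and an adjusted p of 0.826. Against WT replicate 5 alone it was 1.39, a 2.62-fold higher level, with an adjusted p of 0.474 by limma. By the GENCODE M21 annotation 8.33% of the exon bases of Edc4 are shared with Nrn1l on the same strand, and whether such reads were counted is not given in the sources used here.

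Promoter sequence is shown for 4 genes whose YBX1-/- values both lay above both WT values: Edc4, the ring subunit gene Lsm2 and the exosome cap gene Exosc2, which are all the higher genes with the motif described next, and the deadenylase gene Parn as 1 without it. YBX1 takes its name from the Y-box, a promoter element built on the inverted CCAAT pentamer, so CCAAT and its reverse complement ATTGG were searched in the 250 bases before the annotated start and are in capitals. The windows are RefSeq's, build GRCm38.p6, written 5′ to 3′ on the strand of the gene: Edc4 at chr8:105880631-105880880 (plus), Lsm2 at chr17:34981604-34981853 (plus), Exosc2 at chr2:31670465-31670714 (plus) and Parn at chr16:13668171-13668420 (minus).
Edc4: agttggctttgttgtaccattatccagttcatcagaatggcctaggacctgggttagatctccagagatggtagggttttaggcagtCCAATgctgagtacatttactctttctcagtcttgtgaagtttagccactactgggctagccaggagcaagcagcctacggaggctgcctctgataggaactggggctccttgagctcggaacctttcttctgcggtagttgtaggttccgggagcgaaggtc
Lsm2: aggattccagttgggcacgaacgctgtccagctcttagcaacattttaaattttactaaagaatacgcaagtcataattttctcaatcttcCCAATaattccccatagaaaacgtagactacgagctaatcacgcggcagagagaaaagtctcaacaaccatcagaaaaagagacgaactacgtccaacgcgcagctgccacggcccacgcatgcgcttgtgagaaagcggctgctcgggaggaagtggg
Exosc2: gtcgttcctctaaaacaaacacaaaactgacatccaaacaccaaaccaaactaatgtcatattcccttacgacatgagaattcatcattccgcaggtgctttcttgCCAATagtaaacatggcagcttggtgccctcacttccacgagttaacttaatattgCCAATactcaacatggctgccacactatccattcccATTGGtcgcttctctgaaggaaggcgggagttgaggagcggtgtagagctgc
Parn: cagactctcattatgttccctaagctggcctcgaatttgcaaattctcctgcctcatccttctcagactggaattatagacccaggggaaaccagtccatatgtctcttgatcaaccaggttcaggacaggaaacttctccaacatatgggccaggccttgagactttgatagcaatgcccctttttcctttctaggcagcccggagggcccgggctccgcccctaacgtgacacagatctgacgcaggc

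The pentamer stood 1 time in the Edc4 window, 163 bases before the start, 1 time in the Lsm2 window, at 159 bases, and 3 times in the Exosc2 window, at 144, 88 and 52 bases. Lsm2 has 2 RefSeq starts, of which the 1 with the pentamer is shown, and the bases after that start match no Lsm2 transcript of GENCODE M21, so its distance is from the RefSeq start alone. These letters are not in the Parn window. RefSeq windows were found for 36 of the 44 genes, as 45 start sites. Of those 45 windows 12 (26.7%) held CCAAT on either strand, against 33.8% of 32851 windows of all genes, and the difference was not tested. Of 13 higher genes with a window 3 held it, and of 3 lower genes 0 did. A match describes the letters of the window and is not a site.

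Among deadenylases, the genes of the CCR4-NOT complex did not lie on 1 side of WT. The complex is built on the scaffold CNOT1, with CNOT2 and CNOT3 as its NOT module, CNOT10 and CNOT11 as a further module, and 2 nuclease positions, each filled by 1 of 2 paralogues: CNOT7 or CNOT8, and CNOT6 or CNOT6L. Of its 10 genes, 3 (30%) had both YBX1-/- values above both WT values and 0 below. Among genes of at least log2 5 in 2 libraries the shares were near that, at 30.8% and 9.30%. Against WT replicate 5 alone 3 of the 10 lay above and 3 below, beside 39.5% and 35.2% of genes of at least log2 5. The median difference of the 10 from WT replicate 5 was -0.04, and they ran from -0.65 for Cnot4 to 0.74 for Cnot7.

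Cnot7 was at 9.27 and 8.61 in YBX1-/- replicates 1 and 3, against 5.74 and 8.20 in WT replicates 4 and 5, with no overlap. Its limma difference of 1.97 (SE 1.06, adjusted p = 0.826) became 0.74 against WT replicate 5 alone. Its paralogue Cnot8 was at 9.83 and 9.68 in the YBX1-/- libraries, against 8.50 and 9.69 in the WT libraries, where the YBX1-/- values lay on both sides of WT replicate 5. In the other pair of nucleases the groups overlapped for both genes. Cnot6 was at 8.08 and 7.41 in YBX1-/-, against 5.30 and 7.89 in WT. Cnot6l was at 8.15 and 7.37 in YBX1-/-, against 7.24 and 7.69 in WT.

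The scaffold gene Cnot1 was at 8.29 and 7.06 in YBX1-/- replicates 1 and 3, against 7.30 and 8.15 in WT replicates 4 and 5. Its YBX1-/- libraries differed from each other by 1.23, wider than the distance between the means of the groups. In the NOT module, Cnot2 lay above both WT libraries, at 8.51 and 8.44 in YBX1-/- against 5.54 and 8.19 in WT. Cnot3 did not, at 8.33 and 8.25 in YBX1-/- against 8.30 and 8.61 in WT, 3 of the 4 values lying within 0.1 of each other. Cnot4, which encodes a ubiquitin ligase, was at 7.87 and 7.76 in YBX1-/- against 5.52 and 8.47 in WT, below WT replicate 5 in both YBX1-/- libraries. Of the module formed by CNOT10 and CNOT11, Cnot11 lay above both WT libraries, at 6.36 and 6.24 in YBX1-/- against 4.98 and 5.85 in WT. Its partner Cnot10 lay below WT replicate 5, at 8.35 and 8.01 in YBX1-/- against 7.37 and 8.65 in WT. Neither gene passed the test.

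The other deadenylase genes lay on different sides of WT. Of these 3 genes 1 lay above both WT libraries and 1 below, beside 30.8% and 9.30% of genes of at least log2 5 in 2 libraries. PAN2 is the nuclease and PAN3 the adaptor of a complex that trims long tails, and PARN is a separate poly(A)-specific nuclease that also trims noncoding RNAs. Parn was at 8.15 and 7.62 in YBX1-/- replicates 1 and 3, against 5.35 and 7.11 in WT replicates 4 and 5, above both WT libraries, with a difference of 0.78 (1.71-fold) from WT replicate 5 alone. Pan3 was at 9.43 and 9.09 in the YBX1-/- libraries, against 20.29 and 10.14 in the WT libraries, below both. The value of 20.29 in WT replicate 4 is the highest of any of the 44 genes in any library. Against WT replicate 5 the difference of Pan3 was -0.88, the lowest of the 44, and limma gave it an adjusted p of 0.489 without WT replicate 4. Pan2 was at 7.13 and 5.98 in YBX1-/-, against 5.25 and 6.04 in WT, with 1 YBX1-/- value on each side of WT replicate 5.

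In the decapping group, Edc4 and the catalytic subunit gene Dcp2 lay above both WT libraries and the helicase gene Ddx6 below. That is 33.3% of its 6 genes above and 16.7% below. Among genes of at least log2 5 in 2 libraries the shares were 30.8% and 9.30%, so the share above was near that of such genes. DCP2 cleaves the cap, DCP1A and DCP1B activate it, EDC3 and EDC4 promote its assembly, and DDX6 couples it to translational repression. Dcp2 was at 6.47 and 6.71 in YBX1-/- replicates 1 and 3, against 5.14 and 6.22 in WT replicates 4 and 5, a difference of 0.37 from WT replicate 5. Ddx6 was at 9.30 and 8.83 in YBX1-/- against 17.93 and 9.75 in WT. Its difference was -0.68 against WT replicate 5, while the limma difference over all libraries, -4.77 (SE 3.05), carries the value of 17.93 in WT replicate 4.

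For the remaining decapping genes the groups overlapped. Edc3 was at 8.62 and 9.35 in YBX1-/- against 5.82 and 8.66 in WT, with the YBX1-/- values on both sides of WT replicate 5. On the opposite strand 22.1% of its exon bases are covered by Clk3. The activator gene Dcp1a was at 6.54 and 6.86 in YBX1-/- against 5.24 and 7.09 in WT. Its paralogue Dcp1b was at 7.34 and 7.05 in YBX1-/- against 5.17 and 7.35 in WT. Both lay below WT replicate 5 and above WT replicate 4.

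The LSM1-7 ring was the machinery with the most uniform position. Of its 7 genes, 6 had both YBX1-/- values above both WT values and 0 below, and the same 6 lay above WT replicate 5 alone. Among genes of at least log2 5 in 2 libraries, 30.8% lay above both WT libraries, 9.30% below both and 39.5% above WT replicate 5. The median difference of the ring was 1.02 over all libraries and 0.50 without WT replicate 4. After quantile normalization of the 4 libraries 4 of the 7 lay above both WT libraries, with a median of 0.85, beside 0.16 over all tested genes. No member passed the test: the adjusted p by limma was 0.826 to 0.847. LSM1 is the subunit found only in the cytoplasmic ring, whereas LSM2 to LSM7 also form, with LSM8, the nuclear ring on U6 snRNA.

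Lsm1 (chromosome 8, 25785288 to 25803975, plus strand, GRCm38) was at 8.57 and 8.71 in YBX1-/- replicates 1 and 3, against 5.65 and 7.99 in WT replicates 4 and 5. Lsm2 (chromosome 17, 34981862 to 34985891, plus strand) was at 8.92 and 8.38 in YBX1-/- against 5.55 and 7.75 in WT. Lsm4 (chromosome 8, 70673248 to 70678752, plus strand) was at 9.71 and 9.76 in YBX1-/- against 8.36 and 9.07 in WT. In each of these 3 genes the groups did not overlap, and the level was 1.57-fold, 1.87-fold and 1.59-fold that of WT replicate 5. The YBX1-/- pair of Lsm4 differed by 0.0544, less than its distance of 0.67 from WT replicate 5. WT replicate 4 minus WT replicate 5 was -0.71 for Lsm4, a wider gap than that distance.

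Lsm3 is the 1 gene of the ring in which the WT libraries were also close, at 8.99 and 9.08 in YBX1-/- against 8.38 and 8.53 in WT. The YBX1-/- mean was 9.03 ± 0.06 (SD, n = 2) and the WT mean 8.46 ± 0.11 (SD, n = 2). Its limma difference was 0.57 (SE 0.72, adjusted p = 0.847), beside a median of 0.60 over genes of at least log2 5. It was 0.50 against WT replicate 5 alone, 0.65 against WT replicate 4 alone and 0.25 after quantile normalization. The authors' deposited table lists Lsm3 with the opposite sign, at a log2 fold change of -6.53. Lsm7 was at 9.002 and 9.37 in YBX1-/- against 5.69 and 8.79 in WT, above both WT libraries. Lsm6 was at 9.19 and 9.09 in YBX1-/- against 7.44 and 9.08 in WT, and cleared WT replicate 5 by only 0.0070. Lsm5 was the exception, at 6.58 and 6.996 in YBX1-/- against 17.57 and 6.63 in WT, where 1 YBX1-/- value lay below WT replicate 5. Of all 50-base stretches of Lsm5 transcripts, 21% also occur in transcripts of other genes, most often Gm7846, and for Lsm7 14.3%, so reads of these genes could be split between copies.

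**Figure D3:**
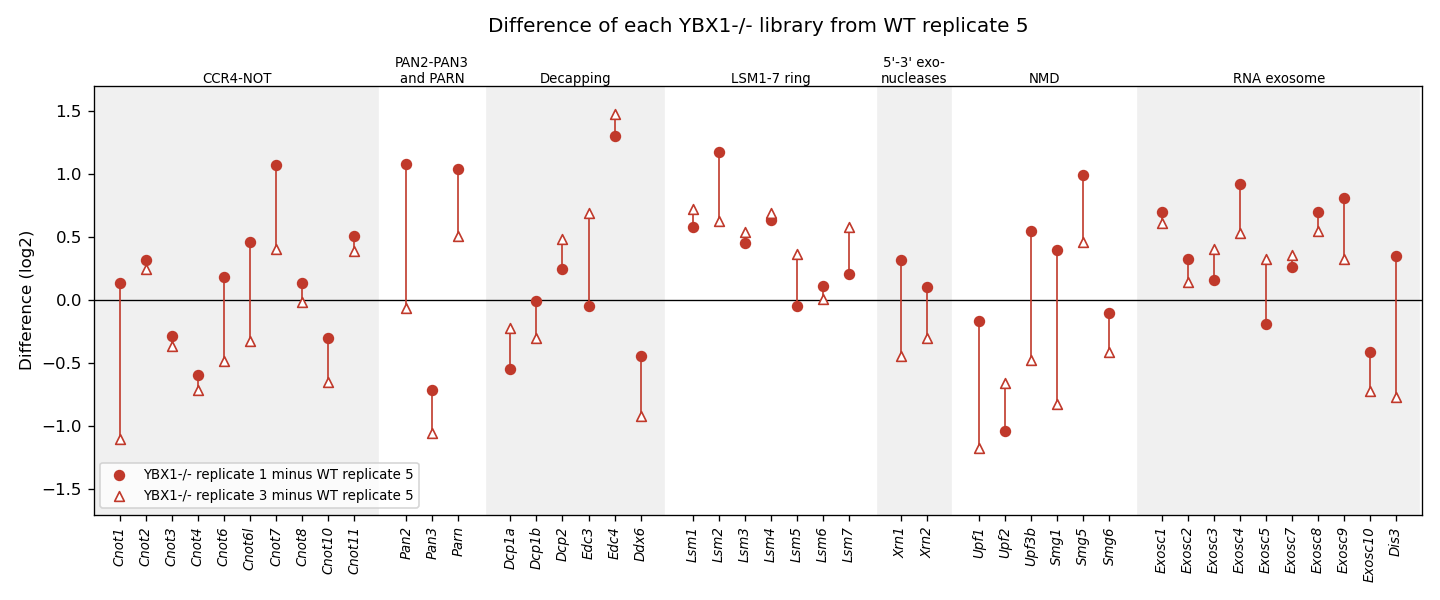
Difference of YBX1-/- replicate 1 (filled circles) and replicate 3 (open triangles) from WT replicate 5 (y axis, log2) for each decay gene (x axis), with the pair joined by a line. Edc4 has the highest pair, with both points at least 1.30 above WT replicate 5. Both points of Lsm1, Lsm2, Lsm3, Lsm4, Lsm6 and Lsm7 are above 0, and the long lines belong to Cnot1, Pan2, Upf1, Upf3b, Smg1 and Dis3.

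The 5′ to 3′ exonuclease genes differed little from WT replicate 5. XRN1 digests uncapped mRNA in the cytoplasm and XRN2 acts in the nucleus, where it takes part in transcription termination. Xrn1 was at 7.12 and 6.36 in YBX1-/- replicates 1 and 3, against 7.12 and 6.81 in WT replicates 4 and 5, with overlap. Xrn2 was at 9.71 and 9.30 in YBX1-/- against 19.03 and 9.60 in WT, on both sides of WT replicate 5. Their differences from WT replicate 5 were -0.06 and -0.10. The limma difference of Xrn2 over all libraries, -4.81 (SE 3.54, adjusted p = 0.826), carries the value of 19.03 in WT replicate 4.

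Among genes of nonsense-mediated decay, 1 of 6 lay above both WT libraries and 2 below, and against WT replicate 5 alone 1 lay above and 3 below. Among genes of at least log2 5 in 2 libraries the shares were 30.8% and 9.30%, and 39.5% and 35.2% against WT replicate 5. The median difference of the 6 was -0.24 without WT replicate 4. UPF1 is the helicase at the centre of the pathway, UPF2 and UPF3B link it to the exon junction complex, SMG1 phosphorylates it, SMG6 is an endonuclease and SMG5 recruits further decay factors. Upf1 was at 6.14 and 5.13 in YBX1-/- replicates 1 and 3, against 11.17 and 6.30 in WT replicates 4 and 5, below both. The YBX1-/- libraries differed from each other by 1.01, which is wider than the difference of -0.67 from WT replicate 5.

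Upf2 was at 5.88 and 6.26 in YBX1-/- against 5.21 and 6.92 in WT. Both YBX1-/- values lay below WT replicate 5, with a mean difference of -0.85, and above WT replicate 4. Smg5 was the gene of this group that lay above both WT libraries, at 9.18 and 8.66 in YBX1-/- against 5.76 and 8.19 in WT, a difference of 0.73 (1.65-fold) from WT replicate 5. Smg6 was at 6.42 and 6.12 in YBX1-/- against 18.79 and 6.53 in WT, and lay 0.10 below WT replicate 5 at the closest. The groups overlapped for the last 2 genes. The kinase gene Smg1 was at 8.83 and 7.61 in YBX1-/- against 8.26 and 8.44 in WT. Upf3b was at 7.22 and 6.19 in YBX1-/- against 5.10 and 6.67 in WT.

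Of the 10 exosome genes 6 lay above both WT libraries and 0 below. The catalytically inactive core of the complex consists of a barrel, with EXOSC4, EXOSC5, EXOSC7, EXOSC8 and EXOSC9 among its subunits, and a cap of EXOSC1, EXOSC2 and EXOSC3, and the nucleases DIS3 and EXOSC10 attach to it. Of the 5 barrel genes 4 lay above both WT libraries, of the 3 cap genes 2, and of the 2 nuclease genes 0. Over genes of at least log2 5 in 2 libraries, 30.8% lay above both WT libraries and 9.30% below. Median differences from WT replicate 5 were 0.57 for the barrel, 0.28 for the cap and -0.39 for the nucleases. The remaining barrel gene, Exosc6, is listed at 0 in all 4 libraries and was not among the 44. These classes were not tested against each other, and no exosome gene passed the test, with adjusted p by limma of 0.826 to 0.914.

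In the barrel, Exosc8, on chromosome 3 of GRCm38 from 54728678 to 54735393 (minus strand), stood at 9.87 and 9.72 in YBX1-/- replicates 1 and 3, against 7.55 and 9.17 in WT replicates 4 and 5. Exosc4 (chromosome 15, 76327397 to 76330677, plus strand) was at 10.01 and 9.62 in YBX1-/- against 7.57 and 9.09 in WT. Both lay above both WT libraries, with 1.54-fold and 1.65-fold the level of WT replicate 5. Exosc9 was at 9.65 and 9.17 in YBX1-/- against 5.61 and 8.84 in WT. Exosc7 was at 10.09 and 10.19 in YBX1-/- against 8.90 and 9.83 in WT. The groups did not overlap in either gene. Exosc5 was at 9.43 and 9.95 in YBX1-/- against 5.83 and 9.62 in WT, with the YBX1-/- values on both sides of WT replicate 5. Exons of Oplah cover 19.8% of the exon bases of Exosc4 on the other strand, and those of Ccna2, a cell cycle gene, 10.8% of Exosc9. Strand use in counting is not given in the sources used here, so reads of such overlapping genes cannot be told apart.

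In the cap, Exosc2 was at 8.96 and 8.77 in YBX1-/- against 5.46 and 8.63 in WT. Exosc3 was at 8.78 and 9.03 in YBX1-/- against 5.68 and 8.62 in WT. Each lay above both WT libraries, but within 0.14 and 0.16 of WT replicate 5 at the closest. Exons of Gm13427 cover 12.4% of the exon bases of Exosc2 on the other strand. Exosc1 was at 10.24 and 10.15 in YBX1-/- against 17.11 and 9.54 in WT. It lay 0.65 above WT replicate 5, with only 0.0866 between the YBX1-/- libraries, but below WT replicate 4, and its limma difference over all libraries was -3.13 (SE 2.96). Of the nucleases, Exosc10 was at 10.10 and 9.80 in YBX1-/- against 8.49 and 10.52 in WT, below WT replicate 5 in both libraries. Dis3 was at 7.52 and 6.39 in YBX1-/- against 5.15 and 7.16 in WT, where the YBX1-/- libraries lay on either side of WT replicate 5 and 1.12 apart.

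Across the machineries, the genes that encode a nuclease or the decapping hydrolase, called catalytic here, were set beside all the others. The others also hold enzymes, such as the helicase genes Upf1 and Ddx6, the kinase gene Smg1 and the ligase gene Cnot4. Of 12 catalytic genes (Cnot6, Cnot6l, Cnot7, Cnot8, Pan2, Parn, Dcp2, Xrn1, Xrn2, Smg6, Exosc10 and Dis3) 3 were above both WT libraries and 1 was below. Of the other 32 genes 16 were above and 3 were below. Over genes of at least log2 5 in 2 libraries, 30.8% were above and 9.30% were below. The median difference from WT replicate 5 was -0.0006 in the catalytic genes and 0.26 in the others. Median exon length was 7.18 kb in the catalytic genes and 4.66 kb in the others. The grouping was made after values were seen. Neither the difference between the classes nor the part of length in it was tested.

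Differences between the YBX1-/- libraries were as large as many differences between the genotypes. YBX1-/- replicate 1 lay above replicate 3 in 31 of the 44 genes, among them all 10 of CCR4-NOT, but in 2 of the 7 ring genes. Over all tested genes the median of replicate 1 minus replicate 3 was 0.01, and the share with replicate 1 above is not given here. The distance within the pair was over 1 in 6 genes (Cnot1, Pan2, Upf1, Upf3b, Smg1 and Dis3), its median over the 44 was 0.36, and over all tested genes it was 0.46. In 27 of the 44 genes (61.4%) the pair was closer together than its mean was to WT replicate 5, where 50.7% of all tested genes and 54.9% of those of at least log2 5 did so. Replicate 3 is the 1 library whose title carries the number 2 after RNA-seq, and what that number stands for is not given in the labels. With replicate 3 left out, YBX1-/- replicate 1 lay above both WT libraries in 28 of the 44 genes (63.6%) and below both in 5 (11.4%), beside 28.2% and 25.2% of all tested genes. With replicate 1 left out, YBX1-/- replicate 3 lay above both in 21 (47.7%) and below both in 9 (20.5%), beside 23.8% and 30.6%. Shares among genes of at least log2 5 are not given for these settings.

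Exon length moved with both differences. Summed exon length, from merged GENCODE M21 exons, ran from 0.792 kb for Lsm5 to 23.98 kb for Smg1. Over the 44 genes its Spearman correlation with YBX1-/- minus WT replicate 5 was -0.45, and with YBX1-/- replicate 1 minus replicate 3 it was 0.40. The same correlations over 9131 genes of at least log2 5 in 2 libraries were -0.16 and 0.31. These are descriptions across genes of the same libraries and carry no p. Of the shorter 22 genes 15 lay above WT replicate 5 and 3 below, and of the longer 22 genes 5 lay above and 8 below. Among genes of at least log2 5 in 2 libraries 39.5% lay above WT replicate 5 and 35.2% below. The shorter 22 hold all 7 ring genes and 7 of the 10 exosome genes, with median lengths of 2.75 kb for the ring and 4.19 kb for the exosome, against 6.62 kb for CCR4-NOT. The part of length in the machinery differences was not tested.

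**Figure D4:**
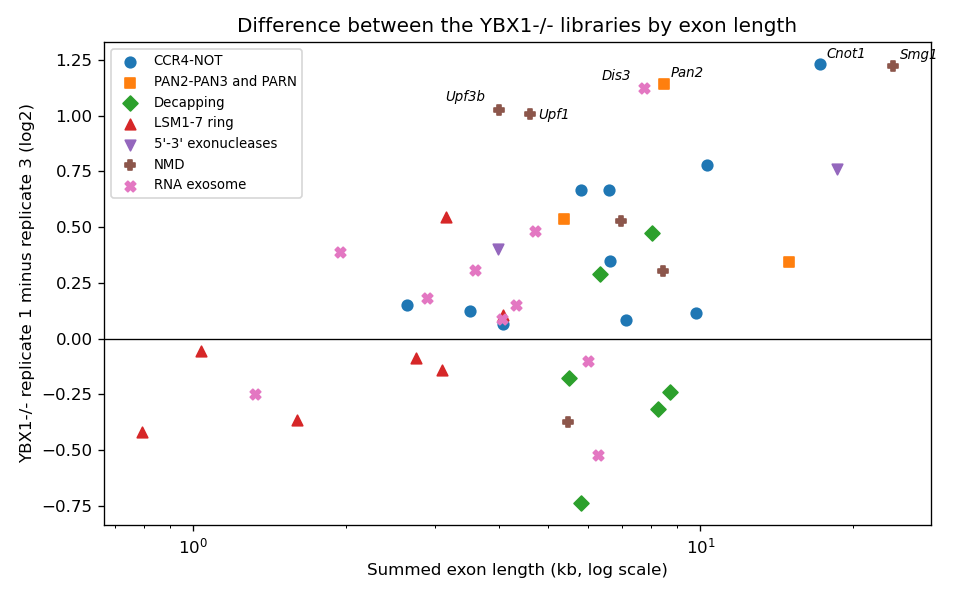
Difference between YBX1-/- replicate 1 and replicate 3 (y axis, log2) against summed exon length (x axis, kb, log scale), with 1 point per decay gene marked by machinery. Genes with a pair over 1 apart are named. They run from 3.999 kb for Upf3b to 23.98 kb for Smg1, and all lie higher in replicate 1.

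Per kilobase of exon, the ring and exosome genes also had the highest levels. The level per kb, the deposited log2 value minus log2 of the exon length in kb, was averaged over the 3 libraries other than WT replicate 4. It assumes that the deposited values were not already scaled by length, which is not given in the sources used here. Its median was 7.46 for the exosome, 7.09 for the ring, 5.32 for CCR4-NOT, 5.20 for PAN2-PAN3 and PARN, 5.05 for the 5′ to 3′ exonucleases, 4.72 for decapping and 3.80 for nonsense-mediated decay. Single genes ran from 9.46 ± 0.39 for Lsm4 to 2.55 ± 0.38 for Xrn1 (SD over 3 libraries). Behind Lsm4 came Exosc4 at 8.61 ± 0.46, Exosc3 at 8.41 ± 0.21 and Lsm7 at 8.38 ± 0.29, which lie within their spread of each other. Cnot8, at 8.34 ± 0.08, was the highest deadenylase gene. The paralogues differed: Cnot7 was at 6.15 ± 0.54, and Cnot6 at 5.07 ± 0.34 was near Cnot6l at 4.37 ± 0.39. Xrn2 stood at 7.54 ± 0.21, well above Xrn1.

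Further genes of the pathway came from a list of 53 set by function, also with earlier results of these data known. Limma called 0 of the 52 that passed the filter, and the smallest adjusted p was 0.826. Of the 52, 18 (34.6%) were above both WT libraries in YBX1-/- and 4 (7.69%) were below, beside 17.3% and 18.8% of all tested genes and 30.8% and 9.30% of those of at least log2 5. Their median difference was 0.52 over all libraries and 0.15 without WT replicate 4. The 4 with the smallest limma p all lay higher in YBX1-/-. Gspt1, which encodes the release factor eRF3a that contacts UPF1, was at 9.01 and 9.19 in YBX1-/- replicates 1 and 3, against 5.53 and 7.78 in WT replicates 4 and 5. Pnrc1, of a family of decapping coactivators, was at 6.58 and 7.42 in YBX1-/- against 5.30 and 5.76 in WT. Dis3l2, a 3′ to 5′ exonuclease that acts on uridylated RNA outside the exosome, was at 7.33 and 6.60 in YBX1-/- against 5.30 and 5.73 in WT. Ttc37, a scaffold of the SKI complex that feeds mRNA to the exosome, was at 6.75 and 6.35 in YBX1-/- against 5.07 and 5.29 in WT. In these 4 genes the groups did not overlap, and differences from WT replicate 5 were 1.31, 1.24, 1.24 and 1.25. Of 12 further deadenylation factors 2 lay above WT replicate 5 and 8 below. The other lists did not share this split. Above and below, they held 6 and 1 of 11 NMD and exon junction factors and 6 and 4 of 11 decapping factors. Of 15 exosome, SKI and TRAMP-like factors 9 lay above and 4 below, and of 3 terminal transferases 1 and 1. Over all tested genes 41.8% lay above WT replicate 5 and 33.4% below.

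The authors' deposited table heads its fold change as WT against knockout, which is read here as YBX1-/- over WT because the value is above 0 in 18 of the 19 genes that lay above both WT libraries. The authors' deposited table called none of the 44 genes at its adjusted p under 0.05, where it called 0.131% of 20610 genes higher and 3.83% lower. The lowest adjusted p of a member in the authors' deposited table was 0.0688, for Exosc1, with a log2 fold change of -5.45. At an unadjusted p under 0.05 the authors' deposited table held 7 of the 44: Edc4 (1.86), Exosc9 (1.88), Exosc4 (1.68) and Lsm4 (1.46) with positive log2 fold changes, and Exosc1, Upf1 (-4.21) and Cnot8 (-3.44) with negative ones. By the same rule 1.63% of genes were higher and 8.03% lower in the authors' deposited table. In 7 of the 44 genes (Cnot1, Cnot3, Cnot4, Cnot8, Lsm3, Upf2 and Smg1) the sign in the authors' deposited table went against YBX1-/- minus WT of the sample columns. Of these, Cnot8 and Lsm3 had the largest values in the authors' deposited table, -3.44 and -6.53. The fold change of 6 members, Pan3, Ddx6, Lsm3, Lsm5, Xrn2 and Smg6, is listed with a p-value of 1 in the authors' deposited table.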

How the data were processed

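RNA from leukemia cells of YBX1-/- and WT mice, 2 libraries each, was sequenced by the submitters. The authors deposited 1 table of 55339 gene symbols. It holds log2 expression per library, whose normalization is not given in the sources used here, beside the authors' log2 fold change with its raw and adjusted p-value. Per the submitters' processing notes the build was GRCm38 and the tools were DESeq2, featureCounts, HISAT2 2.1.0 and CASAVA, with no role or order stated. The deposited log2 values hold no counts, so no interval that needs depth was computed. Genes with a value of at least 0, other than an exact 0, in at least 2 of the 4 libraries were tested, 17303 in all, with limma 3.58.1 and a mean-variance trend in R 4.3.3, on all 4 libraries without covariates. Benjamini-Hochberg adjustment was used with a threshold of 0.05. The fit was run on simulated data with means taken without WT replicate 4 and equal spread in all 4 libraries. No simulated library departs as WT replicate 4 does, so this cannot show how the fit performs on these data. Differences are log2 values of YBX1-/- minus WT, with the moderated SE of limma.

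The 44 genes, the further pathway list and the marker lists were chosen with earlier results of these data known. Genes named with tests were those with both YBX1-/- values on 1 side of both WT values, or else the 2 with the smallest p of a machinery, and the 4 with the smallest p of the further list. Other members are given by their values. Gene positions, exon lengths and overlaps come from GENCODE M21 on GRCm38, and promoter windows from RefSeq on GRCm38.p6. Alternatives were each library left out, centring, quantile normalization, other filters, a pseudocount of 1 and a robust trend.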

Additional observations from a re-analysis of the deposited data

How the results depend on the processing

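No paired analysis was possible because the replicate numbers of YBX1-/- (1 and 3) and WT (4 and 5) have no number in common. Leaving out 1 library at a time, limma called 0 to 4960 of all tested genes: 88 without YBX1-/- replicate 3, 26 without YBX1-/- replicate 1, 4960 without WT replicate 5 and 0 without WT replicate 4. Of the 44 decay genes it called 0 to 28, the 28 without WT replicate 5, where 1 library stands for WT and is assumed to vary like the YBX1-/- pair. Genes with both YBX1-/- values above both WT values numbered 20 to 33 across these settings, against 19 with all libraries, and 17 to 21 under the other alternatives. Genes below both numbered 5 to 11, against 4 with all libraries. They numbered 11 without WT replicate 4 and with quantile normalization of the other 3 libraries. Counts with a library left out rest on fewer comparisons by construction, and the shares of all tested genes moved too: above and below, they were 28.2% and 25.2% without YBX1-/- replicate 3, 23.8% and 30.6% without YBX1-/- replicate 1, 38.5% and 50.7% without WT replicate 5, and 41.8% and 33.4% without WT replicate 4. The median difference of the 44 ran from 0.11 without WT replicate 4 to 1.46 without WT replicate 5, and was 0.41 after quantile normalization, which moved the median of all tested genes to 0.16. Quantile normalization moved the split of all tested genes to 23.5% above and 12.5% below both WT libraries, against 17.3% and 18.8% on the deposited scale. Centring moved the median of all tested genes to -0.23. Of 330 values of the 30 named genes, 306 kept their direction and their side of the threshold, 23 passed it only without WT replicate 5, and 1 reversed. That was Xrn1, whose difference was 0.16 without YBX1-/- replicate 3, -0.60 without YBX1-/- replicate 1 and -0.74 after quantile normalization. Its cause was not tested. Most other named genes were chosen for lying on 1 side of both WT libraries, so leaving out a library could not reverse their sign. Changing the filter or using a robust trend left the differences themselves unchanged. The kept directions are therefore no measure of stability, and sizes did move. Without WT replicate 4 the difference of Cnot2 went from 1.61 to 0.28, and that of Smg6 from -6.39 to -0.26. The deposited table called 0 of the 44 at an adjusted p under 0.01 as well.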
